A study of Mus musculus with 6 samples.

Results

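The 10 genes described here are the immediate early transcription factor genes Fos, Fosb, Fosl2, Jun, Junb, Jund, Egr1, Egr2, Atf3 and Nr4a1. They were taken by gene symbol from the 23038 genes listed for mouse primary oligodendrocyte precursor cells (mOPCs), and all 10 were found. mOPCs are glial progenitors that mature into oligodendrocytes (OLs), the myelinating cells of the central nervous system. The cells were immunopanned from mouse embryos and transfected with control siRNA (siNC, 3 libraries) or with siRNA against Qk (siQk, 3 libraries). Qk encodes the Quaking proteins, which bind RNA and act on splicing, stability and transport of transcripts in glia. No other genetic change or treatment is given for either group, all cultures were collected 72 h after transfection, and the strain is not given in the sources used here. The labels describe 3 biological replicates per group and 3 different Qk siRNAs without saying which library received which, so that differences between siRNAs and between replicates cannot be told apart.

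Immediate early genes are transcribed within minutes of a stimulus, before new protein is made, and their transcripts decay fast. Growth factor signaling through ERK acts on the ternary complex factors Elk1, Elk3 and Elk4, which sit with SRF at the Fos and Egr promoters. JNK phosphorylates Jun protein. Fos family and Jun family proteins pair as the dimeric factor AP-1, Egr proteins are zinc finger factors held in check by Nab1 and Nab2, and Nr4a1 is an orphan nuclear receptor. In the oligodendrocyte lineage these genes are known chiefly as responders to mitogens.

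Library totals ranged from 58166490 to 141045937 tags, and siNC replicate 1 was the shallowest. In that library the ribosomal RNA gene Rn45s took 3.11% of tags, against 0.169% to 0.389% in the others. Qk stood at 209, 206 and 163 RPKM (tags scaled by exon length and library total) in the siNC libraries. It stood at 51.3, 76.6 and 36.2 RPKM in the siQk libraries, which is 28.4% of the siNC mean with no overlap. The 10 OPC markers were all expressed, and 1 was called lower (Lhfpl3) and 3 higher (Cspg4, Olig1 and Olig2). The share called was 40.0%, against 31.0% of all genes tested. Their summed level was 1111 to 1184 RPKM in siNC and 1318 to 1471 RPKM in siQk.

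Of the 10 genes, 9 passed the limit on low counts and 4 of those were called changed after Qk knockdown, all lower: Fos, Fosl2, Jun and Atf3. A gene was called at P below 0.01 and FDR below 0.1 in edgeR's quasi-likelihood test, with P adjusted by Benjamini-Hochberg across 12505 genes. Over all genes tested the same rule called 31.0%, with 17.2% lower and 13.8% higher in siQk. Fos fell most among the called genes and Jun least. None of the 9 was called higher, and at an unadjusted P below 0.05 the same test gave 1 higher, Nr4a1, and 5 lower, the 4 called genes and Junb. DESeq2's Wald test at the same cutoffs called 5 lower and 1 higher, where it called 39.1% of all genes in either direction. The median log2 fold change was -0.38 over the 9 genes and 0.01 over all genes tested. Of the 9 estimates, 6 were below 0, Jund among them at -0.01, and 3 were above 0, none of those called.

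**Figure D1:**
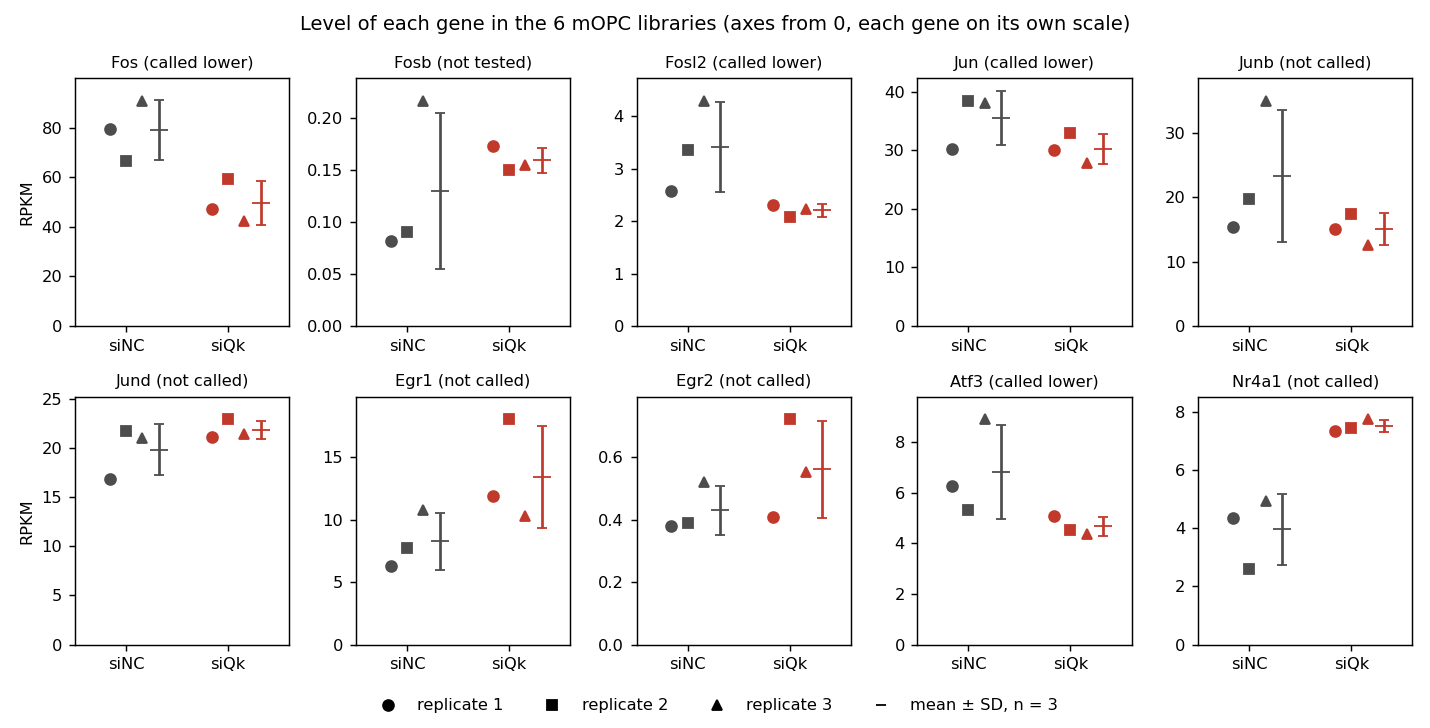
RPKM (vertical axis, linear from 0, with its own scale for each gene) of the 10 genes in the siNC (gray) and siQk (red) libraries; each symbol is 1 library, and the bar gives the mean ± SD over 3. Fos, Fosl2 and Atf3 lie lower in every siQk library than in any siNC library, Nr4a1 lies higher in every siQk library, and the other 6 genes overlap.

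Fos, the AP-1 partner that needs a Jun protein to bind DNA, had the highest level of the 10 genes in both groups. The gene lies at chr12:85473890-85477273 on the plus strand (GRCm38, the mm10 build). It stood at 79.5, 66.8 and 90.9 RPKM in the siNC libraries and at 47.3, 59.3 and 42.3 RPKM in the siQk libraries. Every siQk library was below every siNC library. Over all genes tested, 16.4% had RPKM ranges that did not overlap with siQk lower, and 41.9% with siQk higher. RPKM is scaled by library totals alone, and the part of this scaling in that difference was not tested. Relative to the other genes Fos fell by 0.82 on the log2 scale (SE 0.15, edgeR FDR = 0.00753). Its mean in siQk was 62.8% of that in siNC.

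Fosl2 (Fra-2), a Fos relative that lacks the strong transactivation domain of Fos, changed by nearly the same amount from a much lower level. The gene lies at chr5:32135801-32157842 on the plus strand. It stood at 2.57, 3.36 and 4.29 RPKM in siNC and at 2.31, 2.07 and 2.23 RPKM in siQk. The siQk libraries lay close together, below the lowest siNC library, whereas the siNC libraries were spread. Fosl2 fell by 0.77 on the log2 scale (SE 0.16, edgeR FDR = 0.0109). Fos and Fosl2 were called in each of the 16 alternatives described in the closing section.

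Fosb, which pairs with Jun proteins as Fos does, was barely detected. It held 18 to 108 tags per library, 0.0820 to 0.217 RPKM in siNC and 0.151 to 0.173 RPKM in siQk, and was the 1 gene under the limit of an average logCPM over 0. The ranges overlapped. Tested without the limit, its log2 fold change was 0.15 (SE 0.37, edgeR FDR = 0.786).

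Summed over Fos, Fosb, Fosl1 and Fosl2, the Fos family stood at 83.4, 71.5 and 96.7 RPKM in siNC and at 51.4, 63.4 and 46.7 RPKM in siQk. Fos made up 94.2% ± 0.98 (SD, n = 3) of that sum in siNC and 92.0% ± 1.4 (SD, n = 3) in siQk. Fosl1 (Fra-1), which is not one of the 10 genes, had a share of 1.36% to 1.75% in siNC and 3.00% to 4.29% in siQk. It stood at 1.24, 1.25 and 1.32 RPKM in siNC and at 1.64, 1.90 and 2.003 RPKM in siQk, with no overlap, but it was not called (log2 fold change 0.39, SE 0.14, edgeR FDR = 0.0724).

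**Figure D2:**
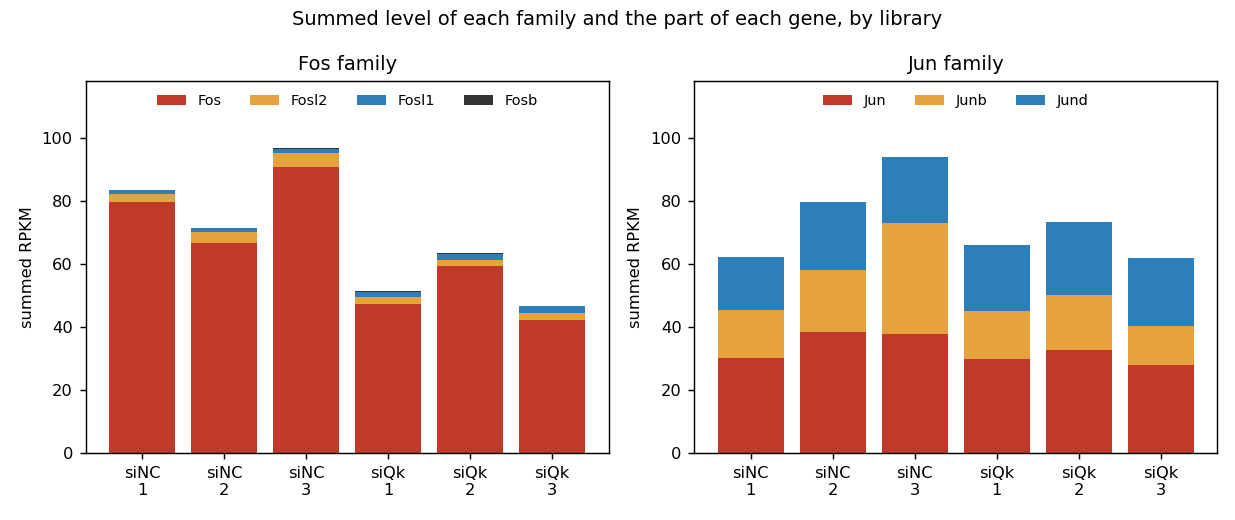
Summed RPKM (vertical axis) of the Fos family (left) and of the Jun family (right) in each of the 6 libraries, with each gene as a colored segment of the bar. Fos fills over 90.6% of every Fos family bar, and the Fos family bars of siQk are shorter than those of siNC, whereas the Jun family bars of the groups overlap.

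Elements known from transcript decay and Quaking binding were searched in the 3' UTRs of GENCODE M21, taking the longest per gene. Quaking proteins recognize the hexamers ACTAAC and ACTAAT (in DNA letters), and AU-rich elements built from ATTTA recruit decay factors. A hexamer was present in 32.6% of 20641 genes and in 3 of the 10 genes (Fos, Egr2 and Atf3). The Fos 3' UTR holds both hexamers in 1 overlapping run, which is shown with the other matches of the set because Qk was the gene knocked down. Capitals mark the hexamers, and each match is a description of the sequence and does not show binding.
Fos, chr12:85476797-85476826, plus strand: ttctcatagcACTAACTAATctgttgggtt
Egr2, chr10:67541750-67541775, plus strand: tcaaaggttaACTAACttatttaaag
Egr2, chr10:67542113-67542138, plus strand: taaaaaaaccACTAACtggagttcag
Atf3, chr1:191171165-191171190, minus strand: gcaggatcccACTAATgggattcagg
Of these 3 genes, Fos and Atf3 were called lower and Egr2 was not called. Fosl2 and Jun, also called lower, had no hexamer in the 3' UTR searched.

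ATTTA was present in the 3' UTR of all 10 genes, against 66.3% of all genes. The number of copies ran from 1 in Fosb and Jund to 4 in Fos and Jun and 8 in Fosl2, whose 3' UTR of 4653 bases was the longest of the 10. The longer element TTATTTATT, which contains ATTTA, was present in 7.80% of all genes and in 2 of the 10, Fos and Fosl2. Both sites are shown because Fos and Fosl2 were the genes called in every alternative, with the element in capitals.
Fos, chr12:85477103-85477131, plus strand: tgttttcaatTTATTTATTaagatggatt
Fosl2, chr5:32156871-32156899, plus strand: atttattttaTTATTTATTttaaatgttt
No match in Egr1, Nr4a1 or the other genes says only that these letters are not in the 3' UTR searched.

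The summed level of the Jun family differed less between the groups. Summed over Jun, Junb and Jund it stood at 62.4, 79.8 and 94.0 RPKM in siNC and at 66.2, 73.2 and 61.8 RPKM in siQk. The groups overlapped. The ratio of the summed Fos family to the summed Jun family was 1.34, 0.896 and 1.03 in siNC and 0.777, 0.866 and 0.756 in siQk, lower in every siQk library, and it was not tested.

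Jun, the main AP-1 partner of Fos, has a single exon and lies at chr4:95049034-95052222 on the minus strand. It stood at 30.2, 38.4 and 38.0 RPKM in siNC and at 30.0, 32.9 and 27.9 RPKM in siQk. The ranges overlapped through siNC replicate 1. Jun fell by 0.38 on the log2 scale (SE 0.088, edgeR FDR = 0.0166), the smallest change of the called genes. The call was lost with upper quartile factors (FDR = 0.0324) and with library totals alone (FDR = 0.126), and when siNC replicate 2 or 3 or siQk replicate 1 or 3 was left out. The antisense gene Junos overlaps Jun, and the library kit does not mark strand, so reads of the pair cannot be told apart.

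The Jun promoter carries an AP-1-like element known from its regulation by Jun protein itself. It is shown, with the element TGACATCA in capitals, as the 1 AP-1-like match among the 9 genes with a promoter in the RefSeq table (GRCm38.p6, 250 bases before to 50 after the start, both strands searched).
Jun, chr4:95052248-95052279, minus strand: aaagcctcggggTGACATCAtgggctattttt
This element begins 45 bases before the start and was present in the promoter windows of 4.18% of 27025 genes. The AP-1 element TGACTCA (5.95% of genes) and the cAMP response element TGACGTCA (2.03%) were in no window of the 9 genes. The window of Jund, chr8:70697489-70697788, ends before the Jund gene coordinates given below, so sequence next to that gene start was not searched.

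Junb, which can restrain Jun in dimers, was the most variable of the well expressed genes in siNC. The gene lies at chr8:84974484-84978718 on the minus strand. It stood at 15.3, 19.7 and 34.9 RPKM in siNC and at 15.1, 17.4 and 12.5 RPKM in siQk. The siNC libraries spanned a factor of 2.28, and the ranges overlapped. Its log2 fold change was -0.78 (SE 0.27, edgeR FDR = 0.0639), close in size to that of Fos but not called. DESeq2's Wald test and edgeR's likelihood ratio test called it, as did the fit without siNC replicate 1. Prdx2 overlaps Junb on the opposite strand.

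Jund, the Jun family gene that many cell types express at rest, differed between the groups by less than the SD of the siNC libraries. The gene lies at chr8:70698949-70700616 on the plus strand. It stood at 16.8, 21.7 and 21.03 RPKM in siNC and at 21.2, 22.9 and 21.4 RPKM in siQk, with overlap. Its log2 fold change was -0.01 (SE 0.082, edgeR FDR = 0.926), and the sign changed with the scaling: it was 0.05 with upper quartile factors and 0.14 with library totals alone. An antisense gene, Gm11175, overlaps it. Jund held 25.5% ± 2.7 (SD, n = 3) of the Jun family sum in siNC and 32.6% ± 1.8 (SD, n = 3) in siQk, while Jun held 45.7% ± 4.5 and 45.1% ± 0.19 (SD, n = 3 each).

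**Figure D3:**
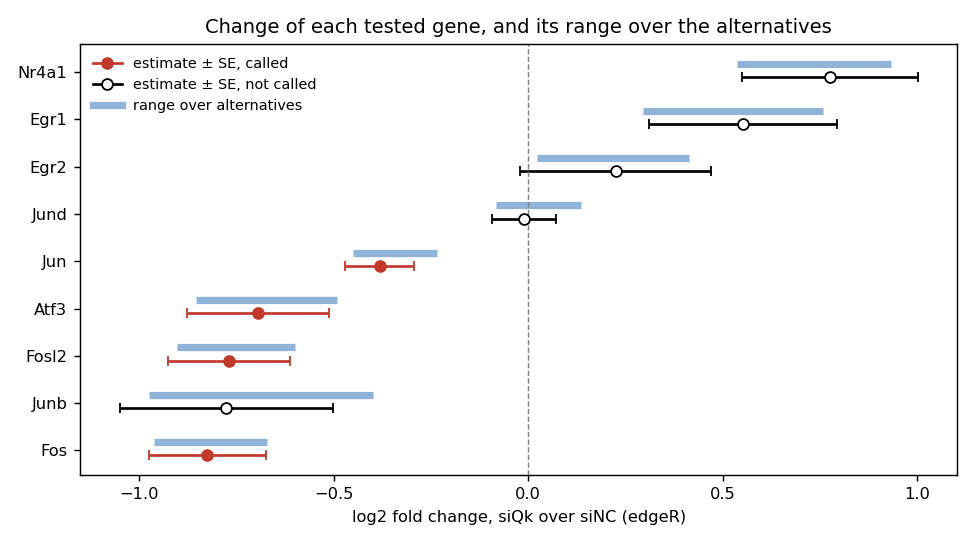
Log2 fold change, siQk over siNC, of the 9 tested genes (points, with SE as whiskers; red for called, open for not called) and its range over the alternatives (blue bars). Fos, Fosl2, Junb, Atf3 and Jun stayed below 0 in every alternative, Nr4a1, Egr1 and Egr2 stayed above 0, and Jund crossed 0.

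Atf3, a bZIP factor of the ATF family that pairs with Jun proteins and is induced by stress, was lower in siQk. The gene lies at chr1:191170296-191218039 on the minus strand and is overlapped by the small RNA gene Gm24748. It stood at 6.26, 5.33 and 8.90 RPKM in siNC and at 5.09, 4.54 and 4.39 RPKM in siQk. The groups did not overlap, with little room between the highest siQk and the lowest siNC library. Atf3 fell by 0.69 on the log2 scale (SE 0.18, edgeR FDR = 0.0253). The call was the least stable of the 4: it was lost in 8 of the 16 alternatives, with FDR up to 0.0828, among them the fits without siNC replicate 1 or 3 and without any one of the siQk libraries.

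Egr1, a zinc finger factor that activates growth factor response genes, was not called. It stood at 6.26, 7.74 and 10.7 RPKM in siNC and at 11.9, 18.01 and 10.3 RPKM in siQk. The lowest siQk library lay below the highest siNC library, so the groups overlapped. The log2 fold change was 0.55 (SE 0.24, edgeR FDR = 0.113). Egr1, like Fos a classical SRF-driven gene, was called in none of the 16 alternatives. Its estimate fell to 0.29 without siQk replicate 2, its highest library, and ran up to 0.76 when another library was left out. The difference between the changes of Fos and Egr1 was not tested.

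Egr2 (Krox20), known as the master regulator of myelination in Schwann cells, lies at chr10:67535475-67542188 on the plus strand. It was near the detection limit at 68 to 215 tags per library. It stood at 0.381, 0.388 and 0.520 RPKM in siNC and at 0.409, 0.721 and 0.553 RPKM in siQk, with overlap (log2 fold change 0.23, SE 0.25, edgeR FDR = 0.495). Of 8 Schwann cell markers, 6 were tested and 1 was called, a share of 16.7% against 31.0% of all genes. The called marker was Pmp22, which is also expressed in OLs and was lower. The summed level of the 8 markers was 323 to 388 RPKM in siNC and 335 to 339 RPKM in siQk.

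Nr4a1 (Nur77) was the gene with the largest positive estimate. The gene lies at chr15:101254269-101274795 on the plus strand. It stood at 4.35, 2.61 and 4.94 RPKM in siNC and at 7.36, 7.47 and 7.75 RPKM in siQk. The siQk libraries were nearly identical and all above siNC, where 41.9% of all genes tested also lay higher without overlap. The log2 fold change was 0.77 (SE 0.23, edgeR FDR = 0.0352), which passed the cutoff on FDR and missed that on P. Nr4a1 was called in 9 of the 16 alternatives, including DESeq2 and the fits without siNC replicate 2 or 3. Its paralog Nr4a2, singled out after its values were seen, fell by 0.82 on the log2 scale. The paralog Nr4a3 was not called (log2 fold change 0.13, SE 0.27, edgeR FDR = 0.725).

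Promoter elements for Egr proteins and SRF are shown for the 4 genes with one in the windows searched. These windows run from 250 bases before to 50 after the start. Egr1 had no promoter in the RefSeq table, and sequence farther from the starts, that of Fos included, was not searched. The Egr element, GCGTGGGCG or GCGGGGGCG, was present in 3.93% of genes and in 3 of the 9 genes, and the SRF element known as the CArG box was present in 1.81% and in 1 of the 9. Capitals mark the element. Egr2 has several annotated starts, and its windows hold 2 distinct CArG boxes, the first in the window of 1 start and the second in those of 3 starts.
Fosb, chr7:19310075-19310107, minus strand: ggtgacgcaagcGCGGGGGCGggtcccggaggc
Fosl2, chr5:32136381-32136413, plus strand: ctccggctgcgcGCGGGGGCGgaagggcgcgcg
Nr4a1, chr15:101266774-101266806, plus strand, element on the opposite strand: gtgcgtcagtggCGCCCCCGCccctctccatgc
Egr2, chr10:67537482-67537515, plus strand: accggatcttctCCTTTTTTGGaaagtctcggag
Egr2, chr10:67537785-67537818, plus strand: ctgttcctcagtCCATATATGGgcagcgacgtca
Of the 3 genes with an Egr element, Fosl2 was called lower, Nr4a1 was not called and Fosb was under the count limit.

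In order of level, Fos stood above Jun in both groups, without overlap. In siNC the ranges of Jun and Junb, of Junb and Jund, of Egr1 and Atf3 and of Nr4a1 and Fosl2 overlapped, so those neighbors were not separated by more than their spread. In siQk the order changed at 2 places: Jund stood above Junb, and Nr4a1, at 7.53 ± 0.20 RPKM (SD, n = 3), stood above Atf3, at 4.68 ± 0.37 RPKM (SD, n = 3). Egr2 and Fosb were lowest in both groups, below 1 RPKM.

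Several of the genes were highest in the same library of their group. In siNC replicate 3, 7 of the 9 tested genes had the highest level of their group and none did in siNC replicate 1. Over all genes tested, siNC replicate 3 was highest for 49.4% of genes in RPKM and for 33.9% with library scaling by TMM, where the count for the 9 genes was again 7. Of 21 other immediate early genes tested, 14 were highest there in RPKM and 12 with TMM. In siQk replicate 2, 6 of the 9 genes were highest, against 44.4% of all genes in RPKM and 37.3% with TMM. That library also held the most Qk of the siQk group. The ratio of highest to lowest siNC library was 1.23 in the median tested gene, and it was 1.36 for Fos, 1.67 for Fosl2 and Atf3, 1.72 for Egr1 and 1.89 for Nr4a1, while Jun, at 1.27, and Jund, at 1.29, lay near the median. Among the siQk libraries the median was 1.13. There Egr2 (1.76) and Egr1 (1.75) had the largest ratios of the 10 genes, Fos stood at 1.40, and Fosl2 (1.12), Jund (1.08) and Nr4a1 (1.05) lay below the median.

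**Figure D4:**
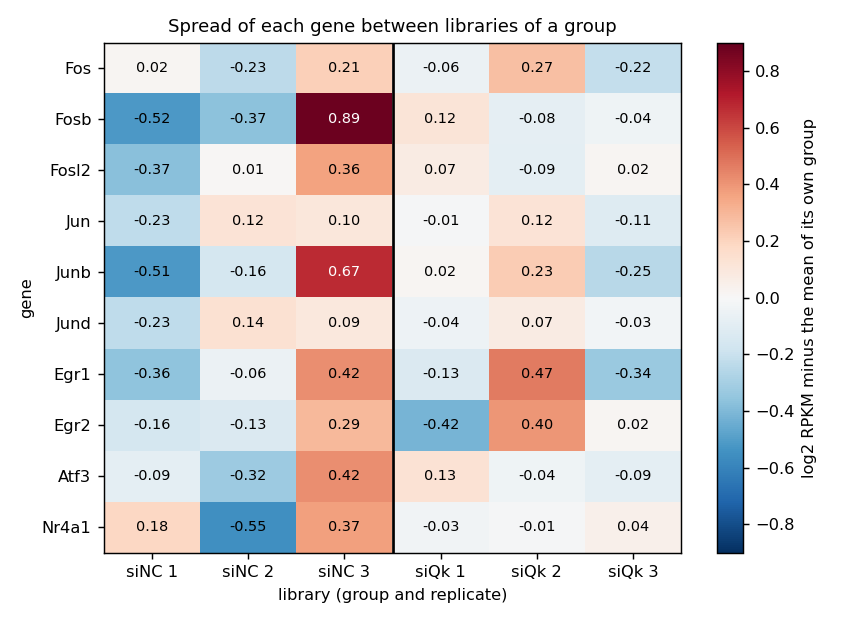
Log2 RPKM of each gene (rows) in each library (columns) minus the mean of its own group, printed in the cells and colored from blue (lower) to red (higher). The siNC 3 column is red for all 10 genes, from 0.09 for Jund to 0.89 for Fosb, and the siQk 2 column reaches 0.47 for Egr1.

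Without siNC replicate 3, Fos fell by 0.74 on the log2 scale and Fosl2 by 0.60, both still called, while Junb had a log2 fold change of -0.40 and was not called. For a single gene, the smallest p that the exact permutation test (2-sided, RPKM of 3 libraries in each group) can give is 0.1, the value reached by Fos, Fosl2, Atf3 and Nr4a1.

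Upstream of these genes, the ERK cascade held several transcripts that were lower in siQk. Of 13 genes tested, 6 fell and none rose, a share of 46.2% against 31.0% of all genes, with a median log2 fold change of -0.38. At an unadjusted P below 0.05 the test gave 6 lower and 2 higher, and DESeq2 called the same numbers. Mapk3 (ERK1) stood at 123, 137 and 106 RPKM in siNC and at 71.5, 61.4 and 82.3 RPKM in siQk. It fell by 0.92 on the log2 scale (SE 0.15, edgeR FDR = 0.00491). Nras, a membrane switch above the cascade, fell by 1.05, and Sos2, a guanine nucleotide exchange factor for Ras, fell by 0.86.

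Of 15 JNK cascade genes tested, 1 was called lower and 3 higher, a share of 26.7% against 31.0% of all genes. DESeq2 called 2 lower and 3 higher. Mapk8 (JNK1) rose by 0.32 on the log2 scale and Mapk10 (JNK3) fell by 0.59, while Mapk9 (JNK2) was not called at -0.11. Map3k1, an upstream kinase, rose from 4.50, 7.08 and 7.06 RPKM in siNC to 14.6, 12.7 and 13.4 RPKM in siQk. The scaffold gene Mapk8ip2 rose by 0.81. Map4k4 (log2 fold change -0.40, FDR = 0.139) and Map3k7 (-0.10, FDR = 0.294) were not called.

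Of 12 genes for SRF, its cofactors and CREB factors, 2 fell and 4 rose. The share called was above the 31.0% of all genes. DESeq2 called 2 lower and 6 higher, and at an unadjusted P below 0.05 there were 3 lower and 6 higher. Elk4 fell by 0.77 (SE 0.091, edgeR FDR = 0.0019) and Elk3 by 0.36, whereas Elk1 rose by 0.28. The call of Elk3 was lost in 10 of the 16 alternatives and that of Elk1 in 7, in both cases including the fits without siNC replicate 2 or 3 and without any one of the siQk libraries. The coactivators Mkl1 and Crtc2 rose by 0.38 and 0.41, the latter not called without siQk replicate 2 or 3. Srf itself was not called but was in 7 of the 16 alternatives, with a log2 fold change of 0.38 (SE 0.11, FDR = 0.0402). Neither Egr corepressor was called by edgeR, DESeq2 or at an unadjusted P below 0.05, with Nab1 at -0.26 and Nab2 at -0.15. Among 6 AU-rich element binding genes, Zfp36l1, which promotes decay, rose by 0.37 and Khsrp by 0.30, and none was called lower by edgeR. The share called was 33.3% against 31.0% of all genes. DESeq2 called 1 of the 6 lower and 3 higher, as did edgeR at an unadjusted P below 0.05.

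**Figure D5:**
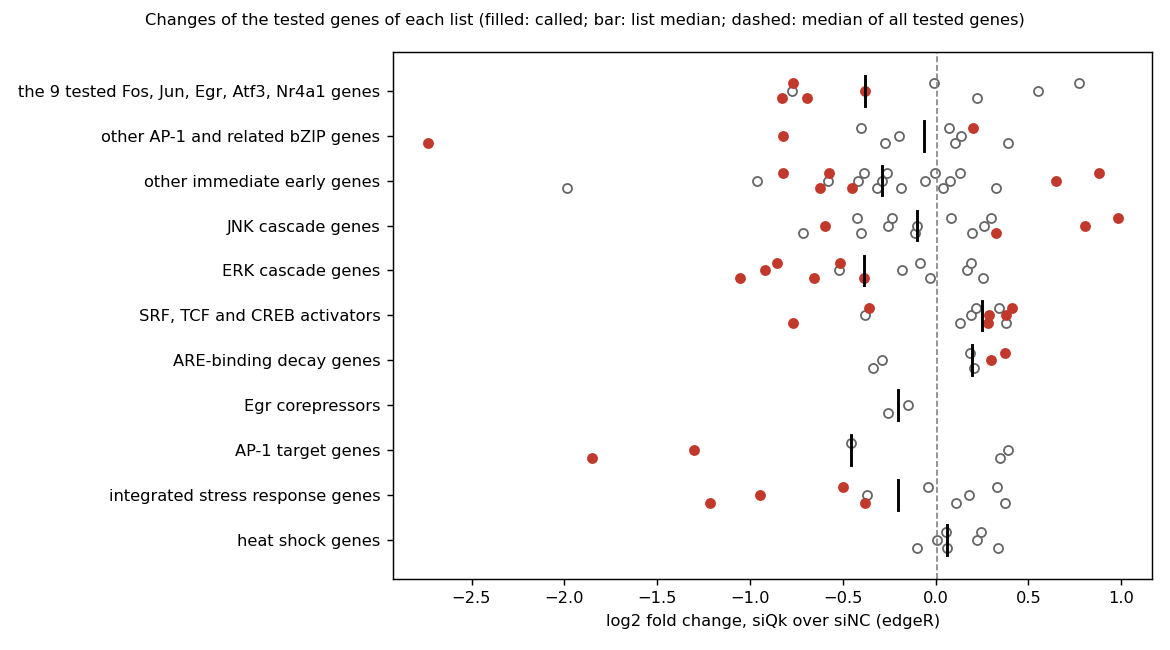
Log2 fold change, siQk over siNC, of every tested gene of each list (1 point a gene; filled red for called, open for not called), with a black bar at the list median and a dashed line at the median of all tested genes, 0.01. The ERK cascade median lies at -0.38, as does that of the 9 immediate early genes, and the median of the SRF, TCF and CREB activators lies at 0.25.

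Of 21 other immediate early genes tested, 4 fell and 2 rose, a share of 28.6% against 31.0% of all genes, and their median log2 fold change was -0.29. DESeq2 called 5 lower and 2 higher, and 7 were lower and 2 higher at an unadjusted P below 0.05. Myc, a growth regulator, rose from 16.3, 13.6 and 19.1 RPKM in siNC to 34.6, 40.1 and 25.9 RPKM in siQk. Among 10 other bZIP genes tested, Maf fell by 2.74 and Atf7, a JNK-responsive partner of Jun, fell by 0.82, while Atf2 rose.

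Of the 10 genes listed as AP-1 targets, 5 passed the count limit. Of those 5, 2 were called, both lower, a share of 40.0% against 31.0% of all genes. At an unadjusted P below 0.05, 1 was higher, and DESeq2 called none higher. Cd44, the hyaluronan receptor, stood at 16.6, 17.3 and 17.4 RPKM in siNC and at 5.82, 4.30 and 5.64 RPKM in siQk. Hmox1, which breaks down heme, fell by 1.30 on the log2 scale. The untested 5, Mmp3, Mmp9, Mmp13, Timp1 and Plaur, reached at most 0.600 RPKM in any library.

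Stress programs were read beside Atf3. Of 10 integrated stress response genes, 4 fell (Ddit3, Trib3, Cebpb and Slc7a11) and none rose, a share of 40.0% against 31.0% of all genes. DESeq2 called 1 higher, and 2 were higher at an unadjusted P below 0.05. Atf4 had a log2 fold change of -0.04. Trib3 fell by 1.22 and Cebpb by 0.95. The call of Cebpb was lost without siNC replicate 2 or 3 or any one of the siQk libraries, and that of Slc7a11 without siNC replicate 1 or siQk replicate 1 or 2. None of 7 heat shock genes tested was called by edgeR's quasi-likelihood test or by DESeq2, and 1 was higher at an unadjusted P below 0.05.

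Some markers of other cells also differed between the groups. Of 9 OL markers, 8 fell (Mbp by 2.21 on the log2 scale), a share of 88.9% against 31.0% of all genes. Their summed level was 3455 to 6033 RPKM in siNC and 1466 to 2197 RPKM in siQk. Of 8 astrocyte markers tested, 4 fell and 1 rose, a share of 62.5% against 31.0% of all genes. The summed level of the astrocyte markers was 216 to 316 RPKM in siNC and 192 to 220 RPKM in siQk. Gja1 and Gjb6 were at most at 0.0130 RPKM in any library. Of 10 microglia markers, 2 were tested and P2ry12 fell. C1qa and C1qb were at 0 in every library, and the summed level was 2.75 to 5.82 RPKM in siNC and 1.39 to 2.09 RPKM in siQk. Of 8 neuron markers tested, 2 rose and none fell, a share of 25.0% against 31.0% of all genes. Snap25 rose by 2.64 and Nefl by 1.61 on the log2 scale. DESeq2 called 4 higher and none lower, and at an unadjusted P below 0.05 there were 4 higher and 1 lower. The summed level of the neuron markers was 138 to 208 RPKM in siNC and 109 to 157 RPKM in siQk. Most of it came from Tubb3 and Elavl3, which were not called. The 10 fibroblast and vascular markers were all under the count limit, summing to at most 0.673 RPKM. In bulk libraries, fewer cells of a type and less RNA per cell cannot be told apart, and the part of these markers in the changes of the immediate early genes was not tested.

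As a description, the genes whose profile over the 6 libraries was most like that of Fos, by the root mean square difference of log2 CPM (tags scaled by library total), centered on the gene, among 10043 other genes with average logCPM over 3, were Lactb2 (0.0830), Mks1 (0.0892) and Arhgap18 (0.0897). Those nearest to Jun were Pigl (0.0227), Trim37 (0.0475) and Ppp3cc (0.0492). Among those nearest to Egr1 were Gas1 (0.138) and Ppp2r2b (0.140), at a larger difference. None of these 8 genes is on the lists above.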

How the data were processed

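Poly-A selected RNA of 6 mOPC cultures was sequenced as 75-nt paired-end reads (TruSeq RNA v2, unstranded). OLego (alignment, mm10) and Quantas (gene quantification) were the tools of the authors. Their deposited files give, per library, expected counts (estimated tags per gene, not normalized), exon length and RPKM, which equal the tags divided by exon length and library total. Versions and annotation are not given in the sources used here.

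Expected counts were rounded. Genes with average logCPM over 0 were tested (12505 of 23038) with edgeR 4.0.16 (limma 3.58.1, R 4.3.3): TMM factors, quasi-likelihood test, group as the only term. A gene was called at P below 0.01 and FDR below 0.1. SE is the absolute log2 fold change over the square root of F. In simulated data 97.9% or more of genes changed by 1 or 2 on the log2 scale were called. Of those calls and the others made there, 11.8% were unchanged genes. Changes smaller than 1, which all 9 tested immediate early genes had (Fos the largest, at -0.82), were not tested in this way. Whether either percentage holds for the real libraries was not tested. DESeq2 was 1.42.0.

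Replicates differed by a chi-square per degree of freedom of 36.3 or more. Libraries with the same replicate number did not deviate together (correlations of deviations -0.053, -0.152 and -0.340). Whether they were handled as pairs is not given, and these values cannot show it.

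The genes and the lists were chosen with earlier results of these data known. Named from each list were called genes among its 3 largest changes, plus set kinases, Elk, Srf and Nab genes. Some list genes outside this rule were named after their values were seen. They were Fosl1, Nr4a2, Nr4a3, Olig1, Atf2, Ddit3, Atf4, Tubb3, Elavl3, the untested AP-1 targets and the defining markers. Hras and Myrf were not analysed here, and not every gene given by the rule is reported.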

Additional observations from a re-analysis of the deposited data

How the results depend on the processing

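The count of immediate early genes called (4) was 3 with the replicate block, with upper quartile factors and with library totals alone, and 5 or 6 with FDR below 0.05 alone, looser filters, the likelihood ratio test and DESeq2. Leaving out 1 library in turn gave 2 to 4 called. It gave 2 to 4 called lower and 0 to 1 called higher. The number called lower was 2 with upper quartile factors and 2 with library totals alone, and the number called higher was 1 with each of DESeq2, FDR below 0.05 alone, the likelihood ratio test, filterByExpr, library totals alone, no filter on low counts and upper quartile factors. The 2 lower calls that remained without siNC replicate 3, siQk replicate 1 or siQk replicate 3, and with upper quartile factors or library totals alone, were Fos and Fosl2. Library totals alone moved the median log2 fold change of all genes from 0.01 to 0.16.

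With the replicate block, although same-numbered libraries did not deviate together, Fos, Fosl2 and Jun were called (3 genes) and Atf3 was not. Among the genes named in the text and refitted, signs turned for 4, all near 0: Jund, Mapk9, Map3k7 and Nab2. Jund was 0.00332 with filterByExpr, 0.136 with library totals alone, 0.0127 without a filter and 0.0495 with upper quartile factors, and leaving out 1 library gave -0.0815 to 0.0468. With library totals alone Mapk9 was 0.0347, Map3k7 0.0556 and Nab2 0.00238, and Nab2 ran from -0.345 to 0.0315 when 1 library was left out, above 0 without siNC replicate 3. The cause was not tested. Shares of the Fos family by tag number, not divided by length, gave Fos 87.5% in siNC and 85.5% in siQk and Fosl2 11.1% and 11.4%. Fosb and Egr2 are limited by depth.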
